A study of Mus musculus with 35 samples.

Results

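NUP98–HOXA9 (NHA9) joins the N-terminal part of the nuclear pore protein NUP98 to the DNA-binding homeodomain part of HOXA9. The comparison described here set a mutant with fewer FG motifs, G-NHA9-8FA, against the full-length fusion, G-NHA9, and asked how the loss of FG motifs changed RNA levels. It was defined by the construct alone and took the 5 libraries of each construct, 10 of the 35 libraries of the series, which covers 7 conditions. G-NHA9 has an FG valence of 38 (the number of its phenylalanine-glycine motifs), and in G-NHA9-8FA the phenylalanine of 8 of them was changed to alanine, which leaves 30. Lineage-negative hematopoietic stem and progenitor cells (HSPCs) from the bone marrow of male and female C57Bl/6 mice were transduced with a lentiviral vector that carried the mEGFP-tagged construct and an mCherry marker. The transduced cells were sorted and grown for 1 week in methylcellulose with growth factors for myeloid and erythroid colonies and 10 ng/mL GM-CSF, and the labels list no further treatment. The age was 8 weeks for 9 of the 10 libraries and 11 weeks for G-NHA9 replicate 1. Cells that carried the empty vector (5 libraries; 8 to 10 weeks of age) were grown in the same way and their levels are given as background.

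NUP98 carries its FG repeats in a disordered region that binds other FG proteins, and fusions of NUP98 gather in many small nuclear spots. The HOXA9 part of the fusion recognizes DNA together with the cofactors PBX and MEIS, and leukemias with NUP98 fusions are known for high levels of HOX genes and of MEIS1. In normal myelopoiesis these genes are expressed in stem and early progenitor cells and fall as granulocytes and macrophages mature.

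Total counts were 32960820 to 58576267 per library for G-NHA9-8FA and 34641407 to 45464263 for G-NHA9. Levels are given as CPM, counts scaled to library size by TMM. The most that a count of 0 allows is 3 counts, worth 0.0512 to 0.0910 CPM by total counts alone. With TMM this limit was 0.0716 CPM on average in G-NHA9-8FA and 0.0772 CPM in G-NHA9. Of the 10 libraries, G-NHA9 replicate 5 lay farthest from its own group. The constructs include NUP98 and HOXA9 sequence, so that RNA of the construct could be counted on either gene, and this was not tested. Nup98 stood at 146 to 198 CPM in G-NHA9-8FA, 145 to 210 CPM in G-NHA9 and 119 to 144 CPM with the empty vector, and did not pass the test between the 2 constructs (log2 fold change, G-NHA9-8FA minus G-NHA9 throughout, −0.10; adjusted p = 0.619). Lineage-negative describes the cells before culture: after it, the lysozyme gene Lyz2 was at 3981 to 20220 CPM in the 10 libraries, and the stem and progenitor marker Cd34 at 74.3 to 235 CPM. Every library held both Xist (244 to 884 CPM) and Ddx3y (6.78 to 24.3 CPM), and neither passed the test (adjusted p = 0.861 and 0.865).

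Between the 2 constructs, 2484 of the 17166 genes tested (14.5%) changed at an adjusted p under 0.05 in edgeR's quasi-likelihood test. In G-NHA9-8FA, 1104 were higher (6.43% of those tested) and 1380 lower (8.04%). Large changes were more often falls: 597 genes were lower and 266 higher by at least 1 on the log2 scale. The 5 libraries of G-NHA9-8FA did not overlap the 5 of G-NHA9 for 1614 genes (9.40%), among them 1404 of the 2484 changed genes. The median log2 fold change over all tested genes was 0.01, and the median standard error was 0.18. The 95% confidence interval lay within ±1 for 12311 genes (71.7%), while for the others a change of that size was not excluded. Without G-NHA9 replicate 5 the count of changed genes was 1556 (555 higher and 1001 lower), and without G-NHA9 replicate 4 the number higher was 682. Scaling by total counts alone moved the median log2 fold change to −0.12 and gave 625 higher and 2504 lower genes, so the split between directions depended on the scaling.

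**Figure D1:**
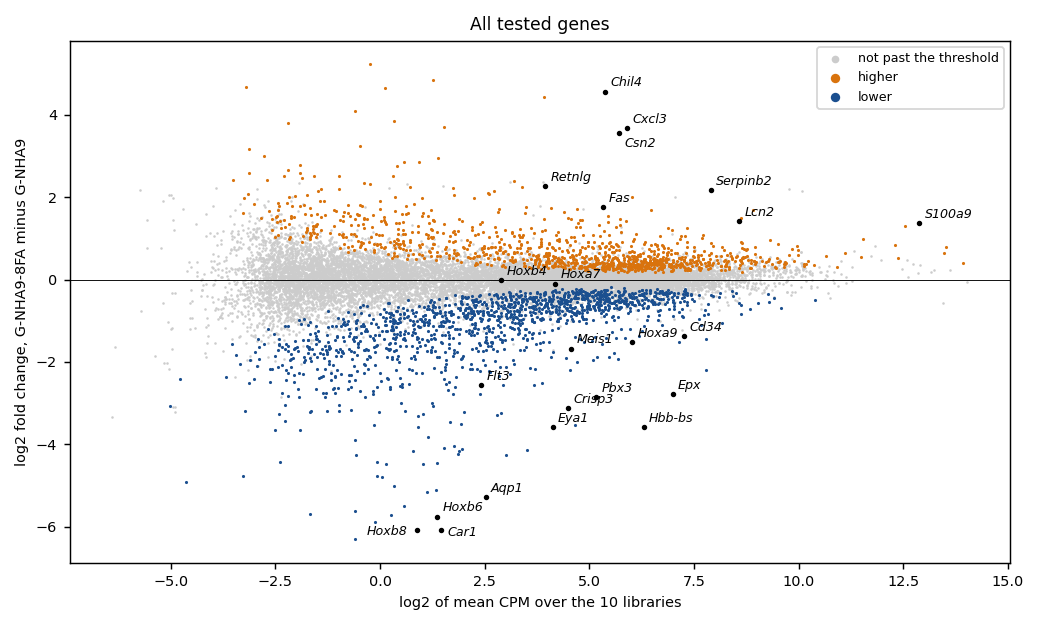
Log2 fold change of each tested gene (G-NHA9-8FA minus G-NHA9, vertical axis) against the log2 of its mean CPM over the 10 libraries (horizontal axis). Orange and blue points are the 1104 higher and 1380 lower genes, grey points did not pass the test, and the labelled falls of Hoxb6, Hoxb8 and Car1 go further than the labelled rise of Chil4.

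Hox cluster genes, which encode the homeodomain proteins that pattern the body axis and mark early hematopoietic cells, were lower in G-NHA9-8FA. Of the 39 Hox genes, 21 had enough counts for the test, 12 were lower and none was higher, with a median log2 fold change of −1.52 against 0.01 for all genes. All 21 had a negative log2 fold change, and 18 of them had an unadjusted p under 0.05 in the same test. The Hox genes without enough counts, among them every HoxD gene, were at or near 0 in both groups. The summed level of the 39 genes was 75.5 to 112 CPM in the G-NHA9-8FA libraries, 201 to 232 CPM in the G-NHA9 libraries and 8.75 CPM on average with the empty vector, so that the mutant lay between the other 2 conditions without overlap. Hoxa9, on which RNA of the construct could be counted, supplied 33.8 of a mean of 90.1 CPM in G-NHA9-8FA and 96.6 of 221 CPM in G-NHA9. All 4 tested genes of HoxC (chr15:102921103-103036852, GRCm38) were lower, 5 of 8 in HoxB (chr11:96194316-96368256) and 3 of 9 in HoxA (chr6:52155590-52260880).

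The HoxB genes split by position. Hoxb5, Hoxb6, Hoxb7, Hoxb8 and Hoxb9 were all lower, while their neighbours Hoxb2, Hoxb3 and Hoxb4 did not pass the test, and 12145 bases separate the gene models of Hoxb4 and Hoxb5. Hoxb8 and Hoxb4 are the only tested HoxB genes with a promoter window in the set used, and the 250 bases before their annotated starts are shown. Motifs could therefore not be compared along the cluster. Capitals mark TTTAT on either strand, part of the sites that HOXA9 and its close relatives bind, and both sequences are from RefSeq's GRCm38.p6 annotation, plus strand.
Hoxb8, chr11:96281655-96281904: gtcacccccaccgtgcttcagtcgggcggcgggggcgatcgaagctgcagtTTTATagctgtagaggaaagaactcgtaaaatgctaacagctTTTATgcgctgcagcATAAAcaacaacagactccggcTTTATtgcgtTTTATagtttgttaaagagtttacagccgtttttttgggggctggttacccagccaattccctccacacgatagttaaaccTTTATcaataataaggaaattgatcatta
Hoxb4, chr11:96318017-96318266: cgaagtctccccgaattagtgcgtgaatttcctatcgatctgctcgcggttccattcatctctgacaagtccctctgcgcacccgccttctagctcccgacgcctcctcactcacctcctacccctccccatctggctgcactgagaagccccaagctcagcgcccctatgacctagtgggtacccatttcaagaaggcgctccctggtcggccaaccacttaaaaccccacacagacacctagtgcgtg
TTTAT occurs 6 times in the first and not in the second, and 37.3% of 32851 promoter windows of the same annotation hold it. Of the other tested Hox genes with a window in that table, Hoxa10 (lower) held 1 in each of its 2 windows, while Hoxa5, Hoxa9 and Hoxc4 (lower) held none. Hoxa7 held 2 and Hoxa2 held 1 although neither passed the test, and Hoxa3 and Hoxa6, which did not pass either, held none. TGATTNAT, the joint site of HOX and PBX proteins, is in neither of the printed windows and in 2.82% of all. A match in such a window is a description and does not show binding.

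Hoxb8, whose forced expression holds myeloid progenitors in an undifferentiated state, was at 3.17, 2.96, 2.46, 3.19 and 6.42 CPM in G-NHA9 replicates 1 to 5 and at 0.0466, 0.0366, 0.0431, 0.128 and 0 CPM in G-NHA9-8FA. All G-NHA9-8FA libraries lay far below all G-NHA9 libraries, at the level of the empty vector (mean 0.0759 CPM). The log2 fold change was −6.08 ± 0.47 (SE; adjusted p = 1.43e-10), resting on 11 counts in all 5 G-NHA9-8FA libraries together. Hoxb6 (−5.76, 20 counts) and Hoxb7 (−5.02, 16 counts) were likewise near the counting limit in G-NHA9-8FA. Hoxb9 held at most 3 counts per G-NHA9-8FA library and was at least 4.76-fold lower. Hoxb5 fell from between 1.57 and 3.72 CPM to between 0.173 and 0.488 CPM (log2 fold change −3.19, adjusted p = 1.89e-06).

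Hoxb4, a regulator of stem cell self-renewal, was at 8.39, 7.17, 6.29, 8.33 and 6.97 CPM in G-NHA9 and at 6.45, 9.66, 8.18, 4.67 and 7.91 CPM in G-NHA9-8FA. The groups overlapped, and the log2 fold change was −0.01 with a 95% confidence interval of −0.37 to 0.35 (adjusted p = 0.98). Hoxb3 was lower in every G-NHA9-8FA library than in any G-NHA9 library, but did not pass the test across genes (−0.48, adjusted p = 0.108). Hoxb5os, an antisense RNA that spans Hoxb5 and Hoxb6, was at 8.29 to 11.1 CPM in G-NHA9-8FA and 3.98 to 8.84 CPM in G-NHA9 (log2 fold change 0.49, adjusted p = 0.154), against 0.0298 CPM with the empty vector. The sense genes Hoxb5 and Hoxb6 were thus lower while the antisense RNA over them was not. The libraries keep strand, but how the counting used it is not given in the sources used here. Of the 4 Hox cluster noncoding RNAs tested, none changed.

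In HoxA, Hoxa9 and Hoxa10 differed most among the tested genes. Hoxa9 itself was at 108, 113, 96.5, 85.8 and 79.3 CPM in G-NHA9 and at 30.1, 32.7, 36.1, 28.5 and 41.5 CPM in G-NHA9-8FA, against 0.975 CPM with the empty vector. The groups did not overlap (log2 fold change −1.52 ± 0.31, SE; adjusted p = 0.00101). How much of these Hoxa9 counts was RNA of the construct was not tested. Hoxa10 was lower by more (from a mean of 4.24 to 0.524 CPM, adjusted p = 2.28e-06), and Hoxa5 by less (−0.76, adjusted p = 0.0303), a call that was lost in 6 of the alternative fits. Hoxa7, which lies 1245 bases from Hoxa9, was at 16.0 to 21.8 CPM in G-NHA9 and 14.1 to 20.5 CPM in G-NHA9-8FA, both far above the empty vector (0.581 CPM), and its log2 fold change of −0.10 had an interval of −0.77 to 0.57 (adjusted p = 0.88). Hoxa2, Hoxa3, Hoxa4 and Hoxa6 did not pass the test either, with log2 fold changes of −0.77 to −0.08. Gene models of Hoxa3 to Hoxa6 overlap on 1 strand, as do those of Hoxc5, Hoxc6 and Hoxc8, so reads could be split between them.

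In HoxC, Hoxc4 fell from 12.6 ± 0.615 to 1.30 ± 0.365 CPM (SD, n = 5 each), a 9.70-fold lower mean with an adjusted p of 2.82e-09. Its 5 G-NHA9 libraries were close together, between 11.8 and 13.5 CPM. Hoxc8 (−4.48), Hoxc5 (−3.22) and Hoxc6 (−2.14) were lower too. Hoxc6 kept 2.91 to 7.67 CPM in G-NHA9-8FA, against 0.0271 CPM with the empty vector. Leaving out any 1 library left 11 to 13 Hox genes lower.

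**Figure D2:**
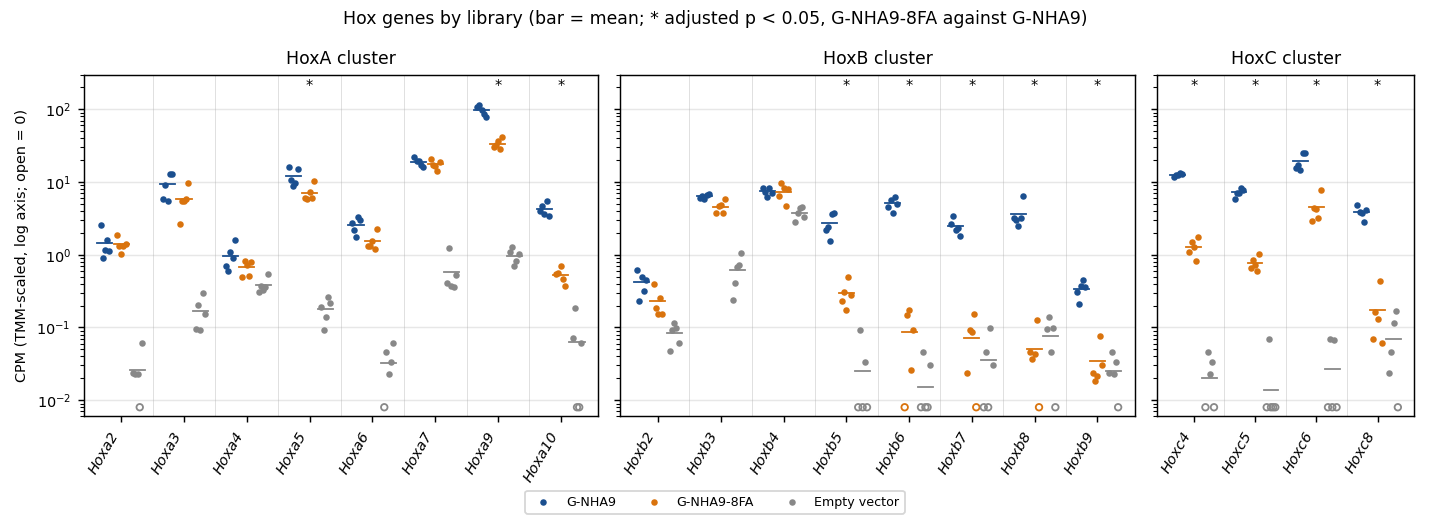
CPM of 20 tested Hox genes in each library (log axis; open symbols at the bottom are 0), with each bar at the mean of the 5 libraries of each condition. G-NHA9-8FA lies near the empty vector from Hoxb6 to Hoxb9, together with G-NHA9 at Hoxb4 and Hoxa7, and between them at Hoxa9 and Hoxc6.

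The partners that share DNA sites with HOX proteins differed strongly. Pbx3, a TALE homeodomain cofactor of HOXA9 (chr2:34171457-34373142, minus strand), had the lowest p of all genes tested. It was at 65.9, 60.7, 52.4, 63.4 and 73.9 CPM in G-NHA9 and at 8.30, 8.67, 10.0, 7.32 and 9.38 CPM in G-NHA9-8FA. Every mutant library was near the empty vector (6.43 CPM), and the mean was 7.24-fold lower (log2 fold change −2.86, interval −3.15 to −2.56; adjusted p = 2.11e-15). Meis1, the other leukemia-associated cofactor (chr11:18879817-19018985), was at 32.4 to 38.8 CPM in G-NHA9 and 8.40 to 15.5 CPM in G-NHA9-8FA, which enclosed the empty vector mean of 13.7 CPM (log2 fold change −1.68, adjusted p = 5.14e-08). Not all TALE genes moved this way. Of 10 tested, Pbx3 and Meis1 were lower, Tgif1 (0.40) and Pknox1 (0.38) slightly higher, and 6 did not pass the test. Without G-NHA9 replicate 4 or without replicate 5, 1 TALE gene was higher.

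Transcription factors of stem cells and leukemia followed. Of 26 tested, 9 were lower and none higher (median log2 fold change −0.46), and their summed level did not overlap between the groups. Eya1, a transcriptional coactivator and phosphatase (chr1:14168954-14310235), was at 45.0, 27.7, 28.0, 32.0 and 28.1 CPM in G-NHA9 and at 3.22, 2.69, 3.54, 2.21 and 1.65 CPM in G-NHA9-8FA. The mutant libraries matched the empty vector (2.52 CPM), and the fall was larger than for Pbx3 (log2 fold change −3.59, adjusted p = 1.24e-11). Mecom, which encodes the stem cell factor EVI1, fell from 7.31 to 1.61 CPM (−2.17, adjusted p = 7.09e-06). Gfi1b, a repressor needed in erythroid and megakaryocytic cells, was lower too (−1.38, adjusted p = 2.27e-05). Leaving out any 1 library left 8 or 9 of these factors lower, and 1 was higher without G-NHA9 replicate 3.

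Surface proteins of stem and progenitor cells were lower in 7 of 20 cases and higher in 2. Cd34 was at 201, 222, 227, 215 and 235 CPM in G-NHA9 and at 85.3, 81.1, 102, 81.2 and 74.3 CPM in G-NHA9-8FA, with 36.9 CPM in the empty vector. The groups were well apart (log2 fold change −1.37, adjusted p = 2.34e-06). Flt3, the receptor tyrosine kinase of early progenitors that is often mutated in leukemia, fell from 9.14 ± 1.28 to 1.54 ± 0.364 CPM (SD, n = 5 each; −2.56, adjusted p = 1.70e-08) and was at 0.187 CPM in the empty vector. Ly6a, which encodes the stem cell antigen SCA-1, and Adgrg1 were lower (−0.87 and −1.20). Prom1, the gene of the progenitor antigen CD133, went the other way, from 21.4 to 53.4 CPM (1.32, adjusted p = 8.65e-05). Cd200r3 was the second rise (0.68, adjusted p = 0.0426); its groups overlapped, and 1 gene was called higher in place of 2 without any 1 of 8 libraries, the exceptions being G-NHA9-8FA replicate 5 and G-NHA9 replicate 1.

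Of 18 receptors for myeloid growth factors, 2 were higher (11.1%, against 6.43% of all tested genes) and 3 lower (16.7%, against 8.04%). Csf3r, the receptor for G-CSF, rose from 33.7 ± 8.06 to 74.4 ± 8.49 CPM (SD, n = 5 each; log2 fold change 1.14, adjusted p = 0.000677). Csf2ra, a chain of the GM-CSF receptor, was higher by 0.66 (adjusted p = 6.84e-05). Epor, the erythropoietin receptor, was lower (−1.75, adjusted p = 1.78e-05), as was Il5ra, the eosinophil interleukin-5 receptor (−2.48, adjusted p = 0.000856), which rested on 15 counts in G-NHA9-8FA. Flt3 was the third, and the other 13 did not pass the test.

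Among 27 transcription factors of the myeloid lineages, 3 were higher (11.1%, against 6.43% of all tested genes) and 2 lower (7.41%, against 8.04%). Spi1, which encodes the myeloid master regulator PU.1, was at 194 to 229 CPM in G-NHA9-8FA and 151 to 188 CPM in G-NHA9, a small difference without overlap (log2 fold change 0.37, adjusted p = 0.000757). Cebpb and Cebpd, factors of late granulocyte and macrophage differentiation, were higher by 0.58 and 0.69. Batf3, required by cross-presenting dendritic cells, was among the lower ones (−1.07). Without G-NHA9 replicate 1, 5 factors were higher.

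Erythroid genes fell more than any other list, by the median. Of 33 genes tested, 29 were lower in G-NHA9-8FA and none higher, with a median log2 fold change of −3.47. In bulk RNA, fewer cells of a type and less RNA per cell cannot be told apart, here and in each lineage below. The β-globin gene Hbb-bs was at 74.8, 149, 134, 173 and 195 CPM in G-NHA9 and at 1.61, 21.9, 12.6, 12.5 and 11.9 CPM in G-NHA9-8FA. Every mutant library was below every G-NHA9 library and below the empty vector mean of 181 CPM (log2 fold change −3.58, adjusted p = 0.000143). The α-globin genes Hba-a1 (−3.54) and Hba-a2 (−4.13) are near-identical copies, so the share of reads on each is uncertain.

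Genes of the red cell membrane fell by a similar size. They included the anion exchanger gene Slc4a1 (log2 fold change −4.27), the water channel gene Aqp1 (−5.29), the Rh complex gene Rhag (−5.51) and the spectrin gene Sptb (−3.23). Car1, a carbonic anhydrase of early erythroid cells, was at 1.70 to 7.69 CPM in G-NHA9 and at 0 to 0.153 CPM (16 counts in all) in G-NHA9-8FA, against 0.862 CPM with the empty vector (log2 fold change −6.09, adjusted p = 4.30e-09). Gata1, the erythroid and megakaryocytic master regulator, was lower by less (−1.24, adjusted p = 0.000217). The summed level of the erythroid list was 372 to 478 CPM in G-NHA9-8FA and 630 to 1337 CPM in G-NHA9. Leaving out any 1 library left 27 to 29 members lower.

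Of 12 heme synthesis genes, 4 were lower (33.3%, against 8.04% of all tested genes) and 1 higher (8.33%, near the 6.43% of all). The erythroid enzyme Alas2 fell with the lineage (−4.11, adjusted p = 5.08e-05), whereas Alas1, the form used in other tissues, was higher (0.48, adjusted p = 0.0127). Cpox, Abcb10 and Slc25a38 were lower by smaller amounts (−0.64, −0.59 and −0.27). Without G-NHA9 replicate 5 there were 2 lower and none higher, and none was higher without G-NHA9-8FA replicate 4 either.

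Eosinophil genes were lower in 9 of 11 cases, with a median log2 fold change of −1.95. Epx, the eosinophil peroxidase, was at 234, 334, 135, 112 and 293 CPM in G-NHA9 and at 7.67, 22.0, 47.6, 14.8 and 68.7 CPM in G-NHA9-8FA. Both groups varied widely and did not overlap, and the empty vector was higher than both on average (430 CPM; log2 fold change −2.79, adjusted p = 4.42e-05). The granule protein genes Prg3 (−2.57) and Prg2 (−2.21) and the lectin gene Siglecf (−0.83) were lower as well. The lowest G-NHA9 library for Prg2, at 129 CPM, lay below the highest G-NHA9-8FA library, at 163 CPM.

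Megakaryocyte and platelet genes were lower in 9 of 23 cases (39.1%, against 8.04% of all tested genes), but their summed level did not fall. It was 6162 to 7269 CPM in G-NHA9-8FA and 3547 to 6404 CPM in G-NHA9. The groups overlapped, with a higher mean in G-NHA9-8FA (6692 against 5416 CPM). The platelet glycoprotein gene Gp9 was at 3.03, 15.5, 14.0, 4.06 and 3.82 CPM in G-NHA9 and at 0.746, 1.90, 1.55, 2.39 and 2.41 CPM in G-NHA9-8FA. G-NHA9 replicates 2 and 3 stood above the other 3, and the same held for Gp5, Tubb1 and the platelet chemokine gene Ppbp (188 and 124 CPM against 30.1 to 35.2 CPM). All 4 were lower in every G-NHA9-8FA library than in any G-NHA9 library (log2 fold changes −2.18, −1.70, −2.27 and −1.92). Cd9, a tetraspanin that is not particular to platelets, was higher (0.53, adjusted p = 0.0461), a call that was lost without G-NHA9-8FA replicate 1, 2, 3 or 4 and without G-NHA9 replicate 2, 4 or 5, after which no member was higher. Scaling by total counts gave 14 lower members.

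**Figure D3:**
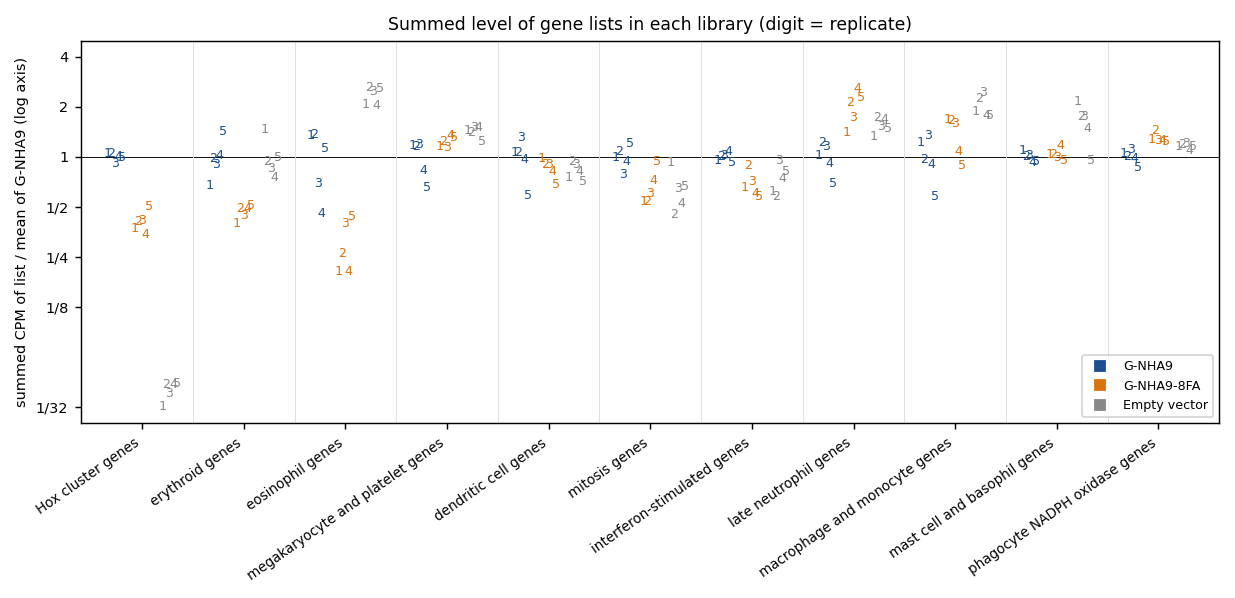
Summed CPM of 11 gene lists in each library, divided by the mean of the G-NHA9 libraries (log axis; digits are replicate numbers, colours are conditions). Hox, erythroid, eosinophil and interferon-stimulated genes lie lower and late neutrophil and NADPH oxidase genes higher in all 5 G-NHA9-8FA libraries than in any G-NHA9 library, while the other 5 lists overlap.

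Late neutrophil genes were the main group to rise. Of 23 tested, 13 were higher and 3 lower (median log2 fold change 0.72), and the summed level was 22061 to 40701 CPM in G-NHA9-8FA, 10882 to 19064 CPM in G-NHA9 and 24251 CPM on average with the empty vector. S100a9, a subunit of the abundant neutrophil protein calprotectin, was at 4117, 5248, 4463, 4085 and 3121 CPM in G-NHA9 and at 6107, 12054, 8549, 14438 and 13181 CPM in G-NHA9-8FA. The groups did not overlap (log2 fold change 1.37, adjusted p = 0.000208), and its partner S100a8 behaved in the same way (1.30, adjusted p = 0.000692). Lcn2, a granule protein that withholds iron from bacteria, rose from 207 ± 15.1 to 553 ± 87.8 CPM (SD, n = 5 each; 1.42, adjusted p = 8.30e-07). Retnlg, a resistin-like protein of mature neutrophils, rose by 2.26.

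Not every neutrophil gene rose. Stfa1 and BC100530, which encode related stefin-type protease inhibitors, were lower (−1.25 and −1.11), as was Ifitm6 (−0.63, adjusted p = 0.037). Stfa1 and BC100530 belong to a family of similar copies, so reads may be shared between them. Without G-NHA9 replicate 4, 8 late neutrophil genes were higher in place of 13, and the same number without replicate 5. Early granule genes of promyelocytes showed no common direction: of 11, Srgn was higher (0.38, adjusted p = 0.0494) and Igfbp4 (−0.69) and Nkg7 (−1.03) lower. These shares were 9.09% higher and 18.2% lower, against 6.43% and 8.04% of all tested genes. The rise of Srgn held only in some fits: no early granule gene was higher without any 1 of G-NHA9-8FA replicates 1, 2 and 4 and G-NHA9 replicates 2 to 5, and 1 was lower without G-NHA9-8FA replicate 1 or G-NHA9 replicate 4.

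The phagocyte NADPH oxidase, which makes the superoxide of the respiratory burst, was higher in 4 of 7 genes. Among them, the cytosolic subunits Ncf1 (0.45) and Ncf4 (0.48) and the membrane subunit Cybb (0.42) rose by similar amounts, with adjusted p-values of 0.00184 to 0.0223. The summed level of the oxidase genes was 3224 to 3740 CPM in G-NHA9-8FA and 2244 to 2869 CPM in G-NHA9.

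Macrophage and monocyte genes moved in both directions, with 5 higher and 6 lower of 33. These shares were 15.2% higher and 18.2% lower, against 6.43% and 8.04% of all tested genes. Lyz2 (0.79), the monocyte matrix gene Vcan (0.75) and the scavenger receptor gene Marco (1.36) were higher, and so was the protease gene Ctss (0.64). The complement genes C1qa, C1qb and C1qc were lower (−2.86, −2.49 and −2.20). C1qb was at 5.53, 7.32, 5.60, 5.02 and 3.17 CPM in G-NHA9 and at 0.466, 1.63, 1.51, 0.514 and 0.550 CPM in G-NHA9-8FA. The empty vector, at 0.620 CPM, matched the mutant. Lyz2 varied from 3981 CPM in G-NHA9 replicate 5 to 20220 CPM in G-NHA9-8FA replicate 2, and the groups overlapped. The number of higher macrophage genes was 2 without G-NHA9-8FA replicate 2 or 3 or G-NHA9 replicate 5, 3 without G-NHA9-8FA replicate 1 or G-NHA9 replicate 2 or 4, and 8 without G-NHA9 replicate 3.

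Dendritic cell genes were lower in 9 of 15 cases and higher in 2. Ccl22, a chemokine of activated dendritic cells and macrophages, fell from 16.5 ± 5.58 to 5.06 ± 0.713 CPM (SD, n = 5 each; log2 fold change −1.71, adjusted p = 2.79e-05), to the level of the empty vector (5.38 CPM). The actin-bundling gene Fscn1 of mature dendritic cells was lower (−1.60, adjusted p = 0.00337). Clec9a and Xcr1, which mark the cross-presenting subset, were higher (0.92 and 1.49), Xcr1 at no more than 0.274 CPM in any of the 10 libraries. Without G-NHA9-8FA replicate 2 or 3 or G-NHA9 replicate 2 or 5, 1 of these was called, and without G-NHA9-8FA replicate 3 the number lower was 6. Of 12 genes of MHC class II presentation, Cd74 (−0.57) and the transactivator Ciita (−0.64) were lower (16.7%, against 8.04% of all tested genes). Ctss was higher (8.33%, against 6.43%). These small counts moved by 1 when single libraries were left out.

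Mast cell and basophil genes were higher in 3 of 29 cases and lower in 1, with log2 fold changes from −2.04 to 1.72. These shares were 10.3% higher and 3.45% lower, against 6.43% and 8.04% of all tested genes. The confidence interval lay within ±1 for 13 of the 29, while for the others a change of that size was not excluded. Their summed level overlapped, at 2599 to 3210 CPM in G-NHA9-8FA and 2550 to 3018 CPM in G-NHA9. Mcpt2, a mast cell protease, was higher (1.03, adjusted p = 0.0153) with overlapping groups, and Gata1 was the lower member that passed the test. Srgn and Cd200r3, the other higher members, are on other lists too, and 1 member was higher without any 1 library other than G-NHA9-8FA replicates 3 and 5 and G-NHA9 replicate 1. Of 24 lymphoid genes, 10 had enough counts, and Thy1 (−1.52, adjusted p = 0.00377) and Ighm (−0.61, adjusted p = 0.0237) were lower, 1 of them without G-NHA9-8FA replicate 1, 3 or 4 or G-NHA9 replicate 4 or 5. Thy1, which early progenitors also carry, was at 144 to 306 CPM in G-NHA9 and 43.7 to 100 CPM in G-NHA9-8FA.

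**Figure D4:**
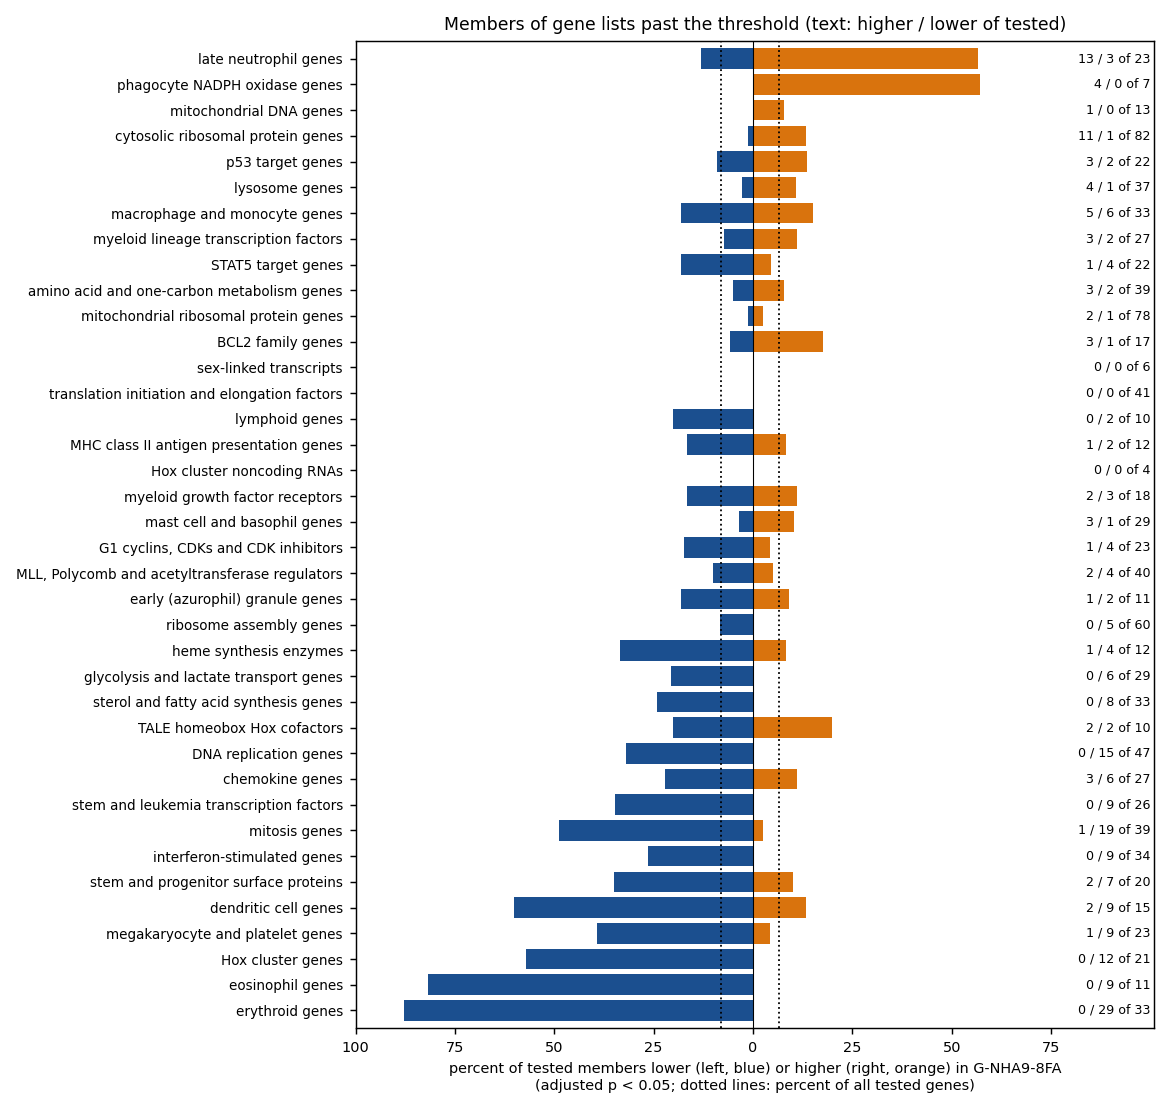
Share of the tested members of 38 gene lists that were lower (blue, left) or higher (orange, right) in G-NHA9-8FA at an adjusted p under 0.05, ordered by median log2 fold change. Dotted lines mark the shares over all tested genes (8.04% lower, 6.43% higher), and erythroid, eosinophil, dendritic cell and Hox genes reach past 50% on the left.

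Outside the lists, the largest rise (mean level 5 CPM or above) was that of Chil4, a chitinase-like protein secreted by myeloid and epithelial cells (chr3:106201490-106219507). It was at 2.50, 2.90, 3.77, 4.67 and 3.12 CPM in G-NHA9 and at 39.2, 112, 86.8, 50.2 and 112 CPM in G-NHA9-8FA. The empty vector had 3.13 CPM, so the mutant stood apart from both (log2 fold change 4.56, adjusted p = 2.55e-09). Csn2, the β-casein gene and a classical STAT5 target, showed an order of its own: it was at 27.5, 105, 43.2, 118 and 190 CPM in G-NHA9-8FA, 2.24 to 15.7 CPM in G-NHA9 and 0.388 CPM with the empty vector (3.57, adjusted p = 0.00129). Abcg3, a transporter gene, rose likewise from 1.26 to 3.36 CPM to 7.67 to 19.5 CPM (2.16, adjusted p = 4.46e-06), with 0.839 CPM in the empty vector.

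Among the other named rises, Cxcl3, a neutrophil-attracting chemokine, rose from 3.33 to 15.3 CPM to 54.0 to 202 CPM (3.67, adjusted p = 8.20e-07). Serpinb2, an inhibitor of plasminogen activators made by activated monocytes, rose from 87.0 to 389 CPM (2.16), and Il1rn, the interleukin-1 receptor antagonist, from 206 to 580 CPM (1.49, adjusted p = 2.43e-07). Ch25h, which makes 25-hydroxycholesterol, rose from 25.9 to 104 CPM (2.01) and Hsd11b1, which regenerates active glucocorticoid, from 31.8 to 85.4 CPM (1.42). Fas, the death receptor (chr19:34290666-34327772), was at 12.3 to 21.5 CPM in G-NHA9 and 45.2 to 77.2 CPM in G-NHA9-8FA, against 31.2 CPM in the empty vector (1.75, adjusted p = 2.82e-09). The rest were G0s2, Mreg, Grina, Amotl2, Cyp4a12a and 2010016I18Rik, with log2 fold changes of 0.92 to 2.39.

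Among the falls outside the Hox and lineage lists, Crisp3, a secreted cysteine-rich protein, was at 46.4, 46.4, 46.4, 31.5 and 31.9 CPM in G-NHA9 and at 2.68, 4.79, 4.34, 6.16 and 5.26 CPM in G-NHA9-8FA, against 0.427 CPM in the empty vector. The mutant kept a low level above the empty vector (log2 fold change −3.13, adjusted p = 2.17e-05). Phtf2 fell from 58.6 ± 5.68 to 19.9 ± 4.20 CPM (SD, n = 5 each; −1.56, adjusted p = 5.35e-10), close to the empty vector at 16.5 CPM. The phosphatase gene Ppm1e (−2.18) and the desmosome gene Pkp3 (−1.33) were lower by similar adjusted p-values of 7.10e-09 and 2.82e-09. Gm8113, a predicted gene, was lower as well (−2.77).

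**Figure D5:**
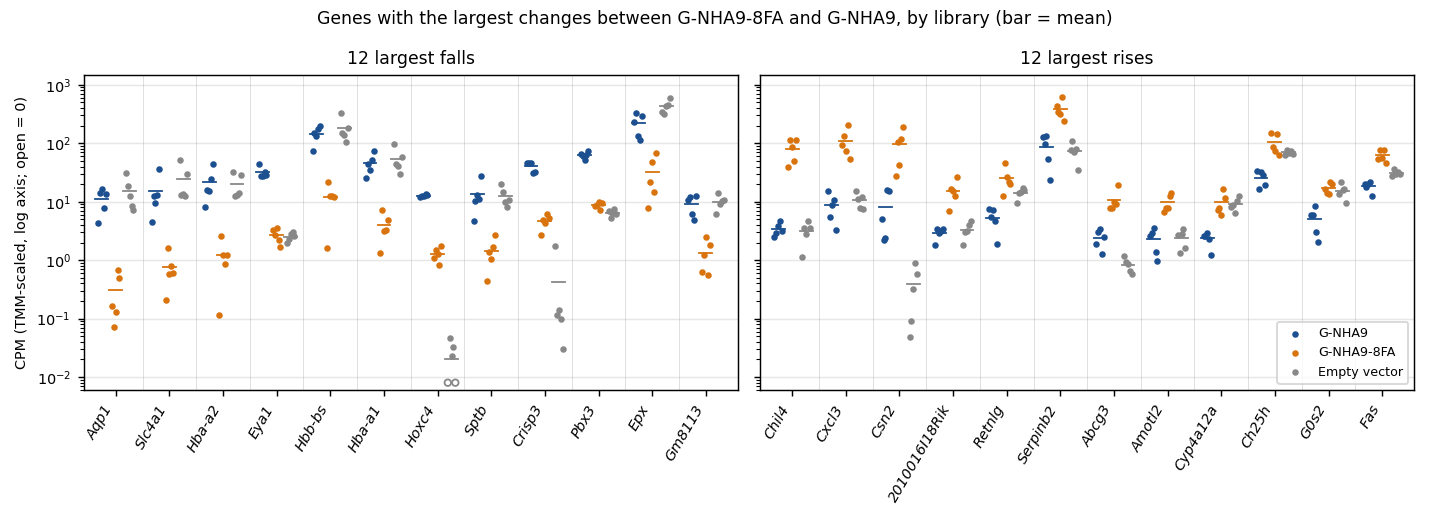
CPM of the genes with the largest falls (left) and rises (right) under the naming rule, in each library (log axis; open symbols are 0; bars are means of 5 libraries). The empty vector lies with G-NHA9-8FA for Pbx3 and Eya1, with G-NHA9 for the globin genes and Chil4, and below both for Csn2 and Crisp3.

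STAT5 targets did not move together, with 4 lower and 1 higher of 22. These shares were 18.2% lower and 4.55% higher, against 8.04% and 6.43% of all tested genes. Socs2, a feedback inhibitor of cytokine signaling, was at 61.4 to 65.5 CPM in the G-NHA9 libraries and 25.6 to 38.9 CPM in G-NHA9-8FA, against 26.6 CPM in the empty vector (log2 fold change −0.97, adjusted p = 1.36e-08). The interleukin-2 receptor gene Il2ra (−1.87), the sialomucin gene Podxl (−2.06) and the kinase gene Pim2 (−1.30) were lower, while Csn2 was the rise described above. Without G-NHA9-8FA replicate 5 or G-NHA9 replicate 1, 2 members were higher.

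Cell cycle genes leaned lower in G-NHA9-8FA, but how many passed the test depended on single libraries. Of 39 mitosis genes, 19 were lower and 1 higher, with a median log2 fold change of −0.57. The kinesin genes Kif23 and Kif20a, which act in cytokinesis, were lower (−0.70 and −0.76), as were the spindle checkpoint gene Bub1b (−0.57) and the contractile ring scaffold gene Anln (−0.61). Kif23 was at 60.7, 60.4, 44.4, 46.2 and 62.7 CPM in G-NHA9 and at 30.2, 26.6, 30.4, 35.7 and 45.9 CPM in G-NHA9-8FA, where replicate 5 was the highest and overlapped. The securin gene Pttg1 was higher (0.32, adjusted p = 0.0272), a call lost without G-NHA9-8FA replicate 1, 2 or 4 or G-NHA9 replicate 1 or 5. The number of mitosis genes lower was 31 without G-NHA9-8FA replicate 5, and 6, 6 and 7 without its replicates 1, 2 and 3. It was 8 without G-NHA9 replicate 2, 4 without G-NHA9 replicate 5 and 29 with scaling by total counts.

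DNA replication genes showed the same pattern at a smaller size: 15 of 47 were lower and none higher (median log2 fold change −0.33). The nuclease gene Dna2 (−0.57), the polymerase subunit gene Pole2 (−0.65), the ligase gene Lig1 (−0.71) and the ribonucleotide reductase gene Rrm1 (−0.52) were among them. This count was 25 without G-NHA9-8FA replicate 5, 31 with scaling by total counts and 8 in a fit on the 10 libraries alone. It was 3, 4 and 5 without its replicates 1, 2 and 3, and 5 and 3 without G-NHA9 replicates 2 and 5. Of 23 genes of G1 control, E2f2 (−0.68), Ccne2 (−0.66), Myc (−0.61) and the CDK inhibitor gene Cdkn2c (−0.86) were lower and Cdkn2a, which encodes the inhibitors p16 and p19, was higher (0.63, adjusted p = 0.00879). The shares of this list were 17.4% lower and 4.35% higher, against 8.04% and 6.43% of all tested genes. There 2 were lower without G-NHA9-8FA replicate 1 or 2 or G-NHA9 replicate 5, and 2 were higher without G-NHA9-8FA replicate 5.

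Death and stress genes changed in small numbers. Of 22 p53 targets, Fas, Phlda3 (0.72) and Sesn2 (0.40) were higher and Perp (−0.71) and Sesn1 (−0.48) lower, so the list had no single direction. These shares were 13.6% higher and 9.09% lower, against 6.43% and 8.04% of all tested genes. The number higher was 1 without G-NHA9-8FA replicate 1 or G-NHA9 replicate 4 or 5, and 5 without G-NHA9 replicate 1. In the BCL2 family, the survival genes Bcl2a1a (1.38), Bcl2a1b (1.40) and Bcl2a1d (0.91) were higher, and reads of these near-identical copies may be shared. The pro-death gene Bik was lower (−1.68, adjusted p = 5.60e-06). In this family 17.6% of the 17 tested genes were higher and 5.88% lower, against 6.43% and 8.04% of all tested genes. Of 39 genes of amino acid and folate metabolism, the stress-response genes Trib3 (1.33, adjusted p = 0.00113) and Ddit3 (1.19, adjusted p = 0.00762) and Sesn2 were higher, and the folate enzymes Mthfd1 (−0.54) and Mthfd1l (−0.52) lower. Without G-NHA9 replicate 3, 5 of them were higher. With all libraries the shares of this list, 7.69% higher and 5.13% lower, were near those of all tested genes (6.43% and 8.04%).

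Of 82 protein genes of the cytosolic ribosome, 11 were higher (13.4%, against 6.43% of all tested genes) and 1 lower, with a median log2 fold change of 0.24, and the count depended on single libraries. Rps12 and Rpl12, which the study names from comparisons with the empty vector, did not pass the test between the constructs (0.24, adjusted p = 0.125, and 0.27, adjusted p = 0.138). Rps24 was at 980 to 1140 CPM in 4 G-NHA9 libraries, 763 CPM in G-NHA9 replicate 5 and 1208 to 1548 CPM in G-NHA9-8FA (0.39, adjusted p = 0.00984). Rpl23a (0.41), Rpl31 (0.45) and Rps19 (0.44) were similar, and replicate 5 was the lowest G-NHA9 library for each. Rpl22l1, a paralog of a ribosomal protein, was lower (−0.36). The number higher was 1 without G-NHA9 replicate 5, 3 without replicate 4 and 31 without replicate 3. It was 5, 1 and 7 without G-NHA9-8FA replicates 1, 4 and 5, and 3 with scaling by total counts.

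None of 41 translation initiation and elongation factors changed, with Eef1a1 at 0.19 (adjusted p = 0.295) and Eef2 at −0.05 (adjusted p = 0.776). Of 60 ribosome assembly genes, 5 were lower (8.33%, near the 8.04% of all tested genes), among them Heatr1 (−0.45), Noc4l (−0.43), Dkc1 (−0.62) and Polr1b (−0.52). This was 1 to 3 without G-NHA9-8FA replicate 1, 2 or 3 or G-NHA9 replicate 2 or 5, and 18 with scaling by total counts. Of 78 mitochondrial ribosomal protein genes, Mrps15 (0.34) and Mrps17 (0.26) were higher and Mrps27 (−0.36) lower, a share below that of all genes in either direction. The number higher was 6 without G-NHA9 replicate 3, 1 without G-NHA9-8FA replicate 1 or 2 or G-NHA9 replicate 1 or 4, and 0 without G-NHA9-8FA replicate 4 or G-NHA9 replicate 5. Of the 13 genes of mitochondrial DNA, mt-Cytb was higher (0.56, adjusted p = 0.0398), a share of 7.69% against 6.43% of all tested genes. This call was lost without G-NHA9-8FA replicate 1, 3 or 4 or G-NHA9 replicate 2, 3, 4 or 5. By contrast, 3 genes were higher without G-NHA9 replicate 1 and 2 without G-NHA9-8FA replicate 2.

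Of 33 sterol and fatty acid synthesis genes, 8 were lower and none higher. The desaturase genes Scd1 (−1.12) and Fads2 (−1.03) and the sterol enzyme gene Lss (−0.64) did not overlap between the groups. The number was 5 without G-NHA9-8FA replicate 1, 15 without its replicate 5, 17 with scaling by total counts and 15 in a fit blocked on replicate number. Of 29 glycolysis genes, 6 were lower and none higher, among them Pgk1 (−0.54), Pfkl (−0.49), Aldoc (−0.50) and Pdk1, the kinase that closes the entry to the citric acid cycle (−0.56), with 3 lower without G-NHA9-8FA replicate 1 and 12 with scaling by total counts. Lysosome genes were higher in 4 of 37 cases (10.8%, against 6.43% of all tested genes), among them Scarb2 (0.48), Lipa (0.70) and Atp6v0d2 (0.82). Gusb was the only lower member (−0.33), a share below the 8.04% of all tested genes. The number higher was 1 or 2 without G-NHA9-8FA replicate 1, 2 or 3 or G-NHA9 replicate 2, 4 or 5, and 8 to 10 without G-NHA9-8FA replicate 5 or G-NHA9 replicate 1 or 3.

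Interferon-stimulated genes were lower in 9 of 34 cases and higher in none (median log2 fold change −0.59). Oas3, an antiviral enzyme that makes oligoadenylates, was at 45.1, 48.9, 49.3, 71.5 and 71.7 CPM in G-NHA9 and at 8.83, 27.9, 13.4, 12.4 and 15.3 CPM in G-NHA9-8FA. The empty vector lay between them at 38.2 CPM (log2 fold change −1.88, adjusted p = 0.000929). Its neighbour Oas2 (−2.23) and Oasl1 (−1.55) were lower as well. The summed level of the list was 626 to 955 CPM in G-NHA9-8FA, 1006 to 1173 CPM in G-NHA9 and 800 CPM on average with the empty vector. The number lower was 6 to 11 when single libraries were left out and 15 in a fit on the 10 libraries alone.

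Of 27 chemokine and chemokine receptor genes, 6 were lower (22.2%, against 8.04% of all tested genes) and 3 higher (11.1%, against 6.43%). Their summed level was 7649 to 11706 CPM in G-NHA9-8FA and 4415 to 8796 CPM in G-NHA9. The groups overlapped, with a higher mean in G-NHA9-8FA (10196 against 7076 CPM). Cxcl3, Ccl6 (0.83, adjusted p = 0.000939) and the neutrophil receptor gene Cxcr2 (0.60) were higher, and Ccl24, an attractant of eosinophils (−2.22, adjusted p = 6.84e-05), and its receptor gene Ccr3 (−1.25) were lower. The number higher was 7 without G-NHA9 replicate 1. Among 40 chromatin regulators of the MLL, Polycomb and acetyltransferase complexes, the Polycomb genes Cbx6 (−0.79), Phc1 (−1.20) and Ezh2 (−0.45) and the MLL fusion partner Mllt3 (−0.51) were lower. Rnf2 (0.34) and Pcgf1 (0.32) were higher. These shares, 10.0% lower and 5.0% higher, are near those of all tested genes (8.04% and 6.43%), and at most 1 was called higher without any 1 library. Without G-NHA9 replicate 5, 2 regulators were lower.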

How the data were processed

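The authors deposited whole-number read counts for 49671 mouse genes in 35 libraries, without normalization. Libraries were stranded total RNA, and the submitters' processing notes name STAR 2.7.0d, HTSeq 0.11.2 and DESeq2, with reads counted on mm10 (GRCm38). The annotation and the counting mode are not given in the sources used here, and no step of the counting was repeated.

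Counts were filtered with filterByExpr (17166 genes, 99.96% of the counts), scaled by TMM and fitted with edgeR 4.0.16 (R 4.3.3, limma 3.58.1) in a quasi-likelihood model with a mean for each of the 7 conditions over all 35 libraries. Tests were two-sided, with Benjamini-Hochberg adjustment over all tested genes and a threshold of 0.05, and the procedure was checked on simulated data. Named genes were those with an adjusted p under 0.05, a mean of at least 5 CPM and no overlap between the groups: the 12 largest changes and the 6 lowest p in each direction. To these were added up to 4 members per gene list and direction with the lowest p, the tested Hox genes, the 6 genes that the study names and, where no member of a list passed, its 2 most abundant. Nup98 was added as a check of the construct. The comparison, the gene lists and the rule were chosen with earlier results of these data known. Some genes that the rule named are not reported here, though they count in their lists. Members whose symbol stands for more than 1 identifier were left out of lists.

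Positions are from GENCODE M21 (GRCm38), in which 99.48% of identifiers were found without their version. Of 193 named genes, 44 overlap another gene on the same strand. Both Hox promoters were matched by symbol in RefSeq's table. Methods describe transduction in triplicate while 5 libraries per condition were deposited, and nothing ties libraries to separate animals, so p-values measure the spread between these libraries. The lowest correlation of log2 CPM (prior count 2) within a group was 0.971, and no libraries were duplicates. Limits from 3 counts cover counting error only. Alternatives were other scalings, filters, DESeq2 1.42.0, limma-voom, the replicate number as a block, a sex-linked score as a covariate and leaving out each library.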

Additional observations from a re-analysis of the deposited data

Results flagged for a closer look

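The check covered 196 groups of 5 libraries: single genes, summed lists and library measures (total counts, TMM factor, genes detected, share of top genes). Of these, 12 held 1 library whose gap to the next was large for the range of its group, and chance alone marks about 1 in 20. All 12 were the highest of their group. Among genes, G-NHA9 replicate 5 stood out for Slc4a1 (36.8 CPM against 4.47 to 13.1 in the other 4) and for Hoxb8 (6.42 against 2.46 to 3.19 CPM), and G-NHA9 replicate 1 for Eya1 (45.0 against 27.7 to 32.0 CPM). G-NHA9-8FA replicate 4 stood out for Hoxb9 (0.077 against 0.0183 to 0.0306 CPM) and Hoxc8 (0.437 against 0.0611 to 0.165 CPM), and G-NHA9-8FA replicate 5 for Abcg3 (19.5 against 7.67 to 9.86 CPM). For Hoxb9 and Hoxc8 the marked library was the one nearest to the other group, and the groups did not overlap with it included. For Slc4a1, Hoxb8, Eya1 and Abcg3 it lay on the side away from the other group, so it could not have made the groups overlap. The naming rule also required no overlap for Slc4a1, Eya1 and Abcg3.

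Among summed lists, G-NHA9 replicate 1 was high for p53 targets (1718.46 against 1214 to 1353 CPM) and genes of mitochondrial DNA (10616.8 against 6879 to 7737 CPM). G-NHA9-8FA replicate 1 was high for myeloid lineage transcription factors (3702.11 against 2549 to 2875 CPM), replicate 2 for NADPH oxidase genes (3740.41 against 3224 to 3318 CPM) and replicate 5 for MLL, Polycomb and acetyltransferase regulators (2910.82 against 2137 to 2220 CPM). The total of G-NHA9 replicate 2 was 45464263 counts, against 34641407 to 37301940 in the other G-NHA9 libraries. G-NHA9 replicate 1 is also the library whose label gives an age of 11 weeks, and the part of age in its values was not tested.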

How the results depend on the processing

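Of the 176 named genes past the threshold, 115 were tested and past it in the same direction under every alternative other than the fold threshold. Another 11 were past it wherever tested but were not tested under at least 1 alternative, 50 were lost under at least 1, and none reversed. Leaving out single libraries gave 1556 to 2827 changed genes (555 to 1431 higher, 1001 to 1471 lower). It gave 11 to 13 Hox, 8 to 9 stem and leukemia factor, 6 to 8 dendritic, 9 to 10 eosinophil, 7 to 12 megakaryocyte, 27 to 29 erythroid and 4 to 31 mitosis genes lower, and 8 to 14 late neutrophil and 1 to 31 cytosolic ribosomal protein genes higher.

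A fit on the 10 libraries alone gave 1559 changed genes (524 higher), 0 ribosomal protein genes higher and 11 mitosis genes lower. A log2 fold change of at least 1 gave 863 (266 higher, 597 lower), with 6 late neutrophil and 0 ribosomal protein genes higher and 0 mitosis genes lower. Scaling by total counts gave 625 higher and 2504 lower, with 14 megakaryocyte, 29 mitosis and 3 ribosomal protein genes. The sex-linked score gave 1698 higher, with 14 megakaryocyte and 27 ribosomal protein genes. A mean of at least 1 CPM left 5 Hox genes lower, since fewer were tested. Of 57 counts of list members above 0, 42 moved by over 1.5 times with the fold threshold, 26 with total counts, 23 with the 10 libraries, 21 with the block, 14 with no filter, 12 with the sex-linked score and 0 to 4 with each of the other scalings, the 1 CPM minimum, DESeq2 and limma-voom. No filter gave 7 and DESeq2 17 ribosomal protein genes higher. Except where fewer genes or libraries entered, the cause was not tested.

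The replicate number as a block gave 3952 changed genes (1989 higher), which held 2480 of the 2484, with 15 megakaryocyte and 31 ribosomal protein genes. The labels link libraries of the 2 constructs only by a number. The paper says that cells were isolated in parallel, and whether same-numbered libraries share a preparation is not given. The deviations of same-numbered libraries correlated by 0.032 to 0.427 (mean 0.180, against −0.044 for other numbers). Of the 5 pairs, 2 were over 0.1, and 3 of 5 G-NHA9-8FA libraries correlated best with their own number.

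Genes that did not pass the test changed sign in places. Hoxa2 was at 0.00499 with limma-voom and at −0.21 to 0.21 when single libraries were left out (positive without G-NHA9-8FA replicate 3 or G-NHA9 replicate 1), and Hoxb4 at −0.13 to 0.10 (positive without G-NHA9-8FA replicate 1 or 4 or G-NHA9 replicate 1 or 4). Hotairm1 was at −0.074 with scaling by total counts and between −0.071 and 0.16 without single libraries, lowest without G-NHA9 replicate 5. Xist was at 0.03 with the sex-linked score and at −0.29 to 0.16, positive without G-NHA9 replicate 5. Ddx3y was at −0.043 to 0.50, negative without G-NHA9-8FA replicate 1 or G-NHA9 replicate 4 or 5. Depth limits Hoxb6 to Hoxb9, Car1 and Rhag, which held 7 to 20 counts over the G-NHA9-8FA libraries.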

Other observations

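Some genes of NF-κB signalling are given here as single genes. They were picked after their values were seen and, apart from the chemokine genes Cxcl2, Ccl3 and Ccl4, were on none of the lists, so their values do not bear on the pathway as a whole. Tnf, the inflammatory cytokine, was at 75.8, 55.0, 78.1, 64.7 and 61.0 CPM in G-NHA9 and at 120, 166, 123, 197 and 95.6 CPM in G-NHA9-8FA. The groups did not overlap (log2 fold change 1.07 in edgeR's quasi-likelihood test, adjusted p = 9.26e-05), and the empty vector, at 62.4 CPM, was close to G-NHA9. Nfkbia, the inhibitor that NF-κB itself induces, was at 186 to 296 CPM in G-NHA9-8FA and 105 to 146 CPM in G-NHA9 (0.79, adjusted p = 6.74e-05). The subunit genes Relb (0.73, adjusted p = 0.000166) and Nfkb2 (0.41, adjusted p = 0.0109) and the inhibitor-like gene Nfkbid (0.84, adjusted p = 0.000512) were higher without overlap.

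Tlr2, a receptor for bacterial lipoproteins, rose from 167 to 309 CPM (0.89, adjusted p = 4.23e-05), Plaur, the urokinase receptor gene, from 282 to 517 CPM (0.88, adjusted p = 0.000592) and Il1a from 12.1 to 39.6 CPM (1.71, adjusted p = 0.00352). The other genes picked did not pass the test. Il1b was at 1.14 (unadjusted p = 0.0243, past the threshold only before adjustment), Cxcl2 at 1.99 (adjusted p = 0.194), Ccl3 at 0.58 (adjusted p = 0.204), Ccl4 at 0.43 (adjusted p = 0.261), Tnfaip3 at 0.32 (adjusted p = 0.501), Nfkb1 at −0.15 (adjusted p = 0.0981) and Rel at −0.38 (adjusted p = 0.344). Cxcl2 was at 206 CPM in G-NHA9 replicate 1, against 9.65 to 24.7 CPM in the other G-NHA9 libraries.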
